A study of Mus musculus with 7 samples.

Results

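Genes of the ion and organic solute carrier families Slc4, Slc5, Slc6, Slc7, Slc8, Slc9, Slc12, Slc13 and Slc26 were examined in the embryonic mouse kidney and in a collecting duct line. Members were chosen by gene symbol in the array annotation alone, with Slc5a3, Slc6a6 and Slc6a12 left out, and 83 of the 18193 genes on the array that could be named met the rule. They divide into 9 genes of Slc4, 10 of Slc5, 16 of Slc6, 15 of Slc7, 3 of Slc8, 7 of Slc9, 8 of Slc12, 5 of Slc13 and 10 of Slc26. Carriers whose symbol ends in a letter, such as Slc6a20a, do not match the rule. The tissue RNA came from E12.5 mouse kidney rudiments, microdissected into metanephric mesenchyme, the stalk of the ureteric bud and its tip, and each had 2 biological replicate arrays. The seventh array measured mIMCD-3, an established line of mouse collecting duct cells (inner medulla), as a subclone cultured to confluency in DMEM. It is 1 culture of 1 subclone, so its values have no replicate error, and per the series' design text it was added to tissue arrays published earlier. The strain of the mice and the number of embryos behind each tissue array are not given in the sources used here.

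Solute carriers move ions and small organic molecules across membranes, either down a gradient or coupled to the flow of sodium, protons or chloride. In the adult kidney many of them recover salt, bicarbonate, glucose and amino acids from the filtrate, and each nephron segment is known for its own set. At the stage studied the ureteric bud, the epithelial tube that becomes the collecting system, is branching into the mesenchyme from which nephrons later form. Several carriers work as part of a complex: the light chains of Slc7 reach the cell surface with a heavy chain encoded by Slc3a1 or Slc3a2. Sodium-coupled carriers depend on the sodium gradient that the sodium-potassium ATPase maintains.

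Levels are given as log2 intensity. A difference is between group means on that scale, followed by its standard error (SE) from limma, and 1 unit is a factor of 2. Called means an adjusted p below 0.05 (Benjamini-Hochberg, all 18193 genes). Intensities of different probe sets are not comparable, so no carrier's level is set against another's. The dissections were checked by markers: the 6 epithelium markers summed to intensities of 367 to 409 (mesenchyme), 12336 to 12397 (stalk), 18716 to 20130 (tip) and 15253 (mIMCD-3), and the 6 nephron progenitor markers to 6570 to 7104, 1695 to 1779, 714 to 873 and 722. The stalk arrays thus held more progenitor signal than the tip arrays. The 8 principal cell markers of the collecting duct summed to 1146 to 1151 (mesenchyme), 1742 to 1750 (stalk), 1074 to 1165 (tip) and 361 (mIMCD-3). Mesenchyme and tip overlapped in this sum, so it does not separate bud from mesenchyme. Of these 8 markers, 4 lay below all tissue arrays in the line, Hsd11b2 by 3.70, and 0 lay above. These are bulk samples, in which fewer cells of a type and less RNA per cell cannot be told apart. Many carriers were dim: 36 of 83 (43.4%) lay below the array median on all 7 arrays, against 28.7% of all genes, and 12 lay below the lower quartile on all 7. The carriers also shifted between replicates, with replicate 2 above replicate 1 for 57 of the carriers in mesenchyme, 57 in stalk and 59 in tip, against 45.02%, 48.32% and 43.3% of all genes.

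Few carriers were called between the tissues, and some of these differed strongly. Against mesenchyme, 6 of 83 carriers were higher in bud (the mean of tip and stalk) and 5 were lower, together 13.3% where 11.1% of all genes were called (6.13% higher and 4.96% lower). In stalk 5 were higher and 2 lower against mesenchyme (8.43%, background 5.54%, of which 4.3% higher and 1.24% lower), and in tip 8 were higher and 6 lower (16.9%, background 15.7%, of which 7.38% higher and 8.37% lower). Between tip and stalk 2 were higher in tip and 4 lower (7.23%, background 9.83%, of which 2.86% higher and 6.97% lower). These shares lie near the background. In the main limma fit, below named the fit without a block, 68 of 83 carriers were called in no comparison. Some of the 68 were called in alternative fits, with and without a block. Arrays of the sides did not overlap for 19 carriers in bud against mesenchyme (22.8% of all genes), 36 in stalk (47.9%), 36 in tip (45.1%) and 41 between tip and stalk (50.8%). The median difference of the 83 was -0.03 for bud against mesenchyme (all genes -0.02) and 0.15 for tip against stalk (all genes 0.07). The 3 comparisons with mesenchyme share its 2 arrays and are not independent of each other. The carriers with the largest bud values were Slc7a8, a transporter of neutral amino acids, and Slc8a1, a sodium-calcium exchanger, and the largest difference between tip and stalk was that of the anion exchanger Slc26a7.

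Counts of called carriers moved with the fit. Among the alternatives the count over all genes is given only for median centring. The other counts in this paragraph have no background beside them, so they do not tell whether carriers moved more than all genes. With replicate as a blocking factor the higher count in bud was 10, the lower count in tip against mesenchyme 11, and tip against stalk had 9 higher and 8 lower. Without mesenchyme replicate 2 the higher count in bud was 3 and that in stalk 3. Without stalk replicate 1 stalk had 3 higher and 0 lower (2 lower at an unadjusted limma p under 0.05), and without stalk replicate 2 it had 3 higher. With only the arrays compared stalk had 1 lower, and leaving out either tip array gives that same fit. The lower count in stalk also moved when mesenchyme replicate 1 was left out. Between tip and stalk the higher count was 1 with only the arrays compared, and leaving out either mesenchyme array gives that same fit. The higher count also moved when either stalk array or tip replicate 1 was left out. With arrays centred on their medians the split between tip and stalk was 5 higher and 4 lower in place of 2 and 4, as that scaling moved the median of all genes from 0.07 to 0.18. Over all genes the split was 1024 higher and 1085 lower with that scaling, in place of 521 and 1268.

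**Figure D1:**
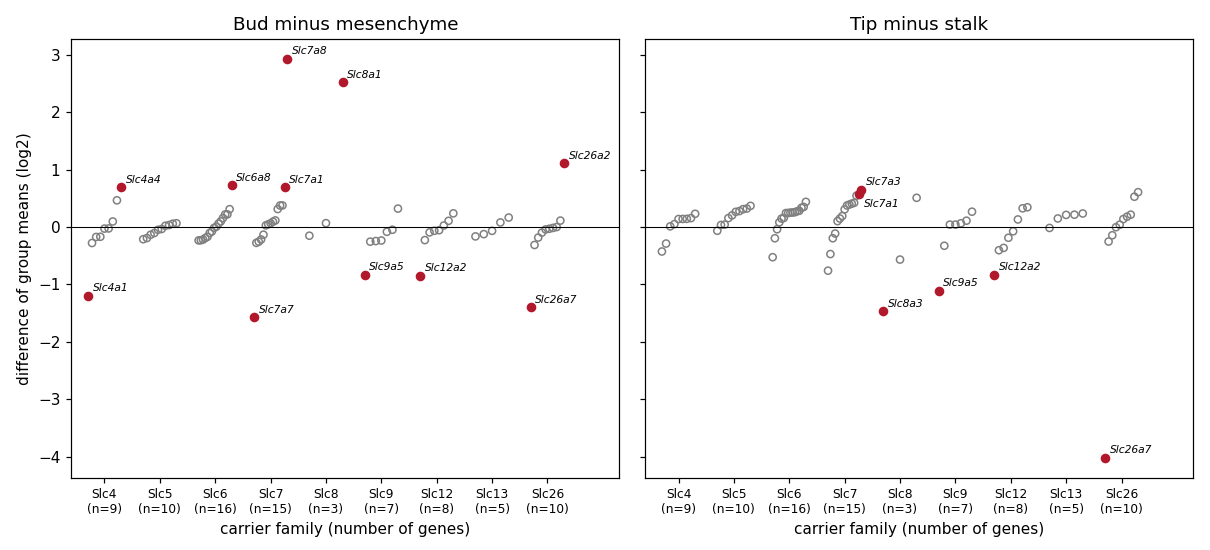
Difference of group means (log2, vertical axis) for each of the 83 carriers, by family (horizontal axis), for bud minus mesenchyme on the left and tip minus stalk on the right; each circle is 1 gene and filled circles were called in the limma fit. On the left Slc7a8 (2.93) and Slc8a1 (2.52) stand above the rest, and on the right Slc26a7 (-4.01) stands below.

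Amino acid carriers of the Slc7 family held the largest differences in both directions between bud and mesenchyme. Slc7a8 encodes LAT2, a light chain that exchanges neutral amino acids. Its log2 intensities were 4.83 and 4.69 in mesenchyme, 7.50 and 7.57 in stalk, 8.21 and 7.47 in tip and 4.69 in mIMCD-3. All 4 bud arrays lay far above both mesenchyme arrays, and mIMCD-3 lay at the mesenchyme level. The difference was 2.93 ± 0.20 for bud (7.6-fold; adjusted p = 6.55e-05), 2.77 ± 0.23 for stalk and 3.08 ± 0.23 for tip, while tip and stalk differed by 0.31 ± 0.23 (adjusted p = 0.487; 0.0329 without tip replicate 2). Slc7a7 encodes y+LAT1, the light chain that exports cationic amino acids. Its values were 7.41 and 7.05 in mesenchyme, 5.82 and 6.26 in stalk, 5.18 and 5.38 in tip and 4.97 in mIMCD-3. Their order was mesenchyme, stalk and tip without overlap, with a bud difference of -1.57 ± 0.17 (adjusted p = 0.000669), -1.19 ± 0.19 in stalk (adjusted p = 0.0114) and -1.95 ± 0.19 in tip. Its second probe set gave -0.87 for bud. The stalk call was lost without mesenchyme replicate 1 (adjusted p = 0.062) and without stalk replicate 1 (adjusted p = 0.0747). Tip minus stalk was -0.76 ± 0.19 and not called (adjusted p = 0.0507), but 8 of 12 alternatives called it. Among them were the replicate block (adjusted p = 0.017) and only the arrays compared (adjusted p = 0.045). Leaving out either mesenchyme array gives that last fit again, so these are not separate checks. Slc7a7 is known from macrophages as well as from absorptive epithelia. Of 10 myeloid markers 7 were lower in bud and 0 higher, and their intensities summed to 1062 to 1211 (mesenchyme), 674 to 681 (stalk), 330 to 435 (tip) and 308 (mIMCD-3), with C1qa at -1.84 for bud. Their part in the Slc7a7 difference was not tested.

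Slc7a7 and Slc7a8 are near neighbours on mouse chromosome 14, and they differed from mesenchyme in opposite directions. Of 15 protein-coding genes listed between them 12 were measured, and in bud against mesenchyme only Ajuba, which encodes a LIM domain protein, was called among these 12 (0.78 ± 0.10; adjusted p = 0.00213). The others lay between -0.22 and 0.37.

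**Figure D2:**
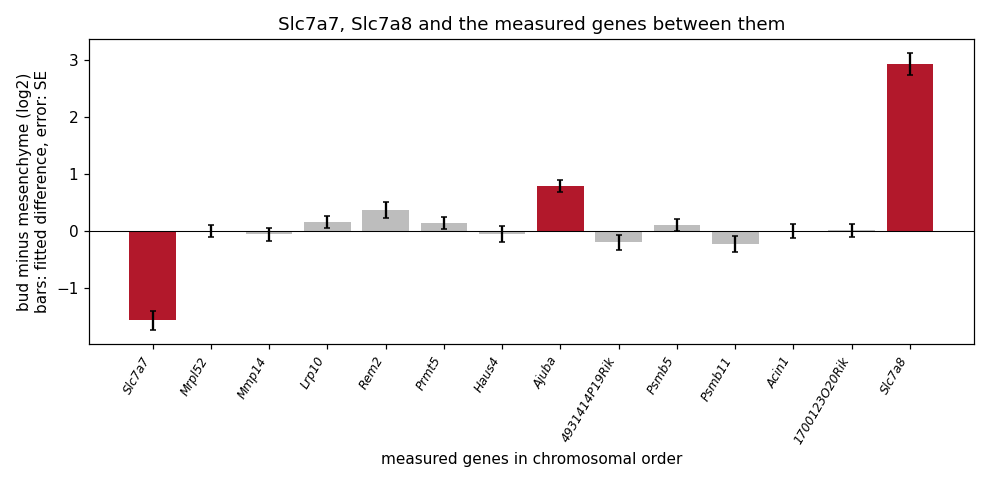
Bud minus mesenchyme (log2, vertical axis, bars with SE) for Slc7a7, Slc7a8 and the 12 measured genes between them in chromosomal order (horizontal axis); dark bars were called. Slc7a7 (-1.57) and Slc7a8 (2.93) lie at the ends, and Ajuba (0.78) is the one called gene between them.

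The 250 bases before a listed start of Slc7a8, of Slc7a7 and of the sodium-calcium exchanger gene Slc8a1 are shown because these 3 carriers had the largest differences between bud and mesenchyme. The sequences are those of RefSeq in build GRCm38.p6, read 5′ to 3′, with CG dinucleotides in capitals.
Slc7a8 (chr14:54781887-54782136, minus strand): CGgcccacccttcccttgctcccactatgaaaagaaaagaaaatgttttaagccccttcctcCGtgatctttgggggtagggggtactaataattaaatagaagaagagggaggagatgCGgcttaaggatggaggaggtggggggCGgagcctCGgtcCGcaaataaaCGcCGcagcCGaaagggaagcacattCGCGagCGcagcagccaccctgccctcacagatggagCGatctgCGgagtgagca
Slc8a1 (chr17:81738388-81738637, minus strand): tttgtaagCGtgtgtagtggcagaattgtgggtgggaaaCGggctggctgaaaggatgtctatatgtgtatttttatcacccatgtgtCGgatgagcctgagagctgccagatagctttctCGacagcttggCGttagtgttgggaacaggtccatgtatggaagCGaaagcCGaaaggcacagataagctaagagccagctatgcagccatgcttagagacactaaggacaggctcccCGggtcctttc
Slc7a7 (chr14:54417945-54418194, minus strand): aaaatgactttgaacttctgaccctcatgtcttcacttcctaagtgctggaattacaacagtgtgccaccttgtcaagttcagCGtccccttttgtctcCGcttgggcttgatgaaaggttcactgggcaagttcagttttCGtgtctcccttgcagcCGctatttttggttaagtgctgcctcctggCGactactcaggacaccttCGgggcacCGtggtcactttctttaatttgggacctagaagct
The upstream stretch of Slc7a8 held 14 CG dinucleotides, that of Slc8a1 8 and that of Slc7a7 7, and their GC contents were 55.6%, 50.4% and 48.8%. The Slc7a7 start was picked from several because its window holds the amino acid response site given below. In windows of 300 bases, the listed starts of Slc7a7 held 5 to 13 CG dinucleotides at 48.3% to 62% GC. The Slc7a8 window held 20 at 58.0%, so the contrast with Slc7a7 depends on the start chosen. Over windows of 300 bases around the start, 84 windows of 59 carriers were found in the table, with a median of 10 CG dinucleotides against 7 over all 32851 windows. A grainyhead site (AACCGGTT, which is its own reverse complement) was in 0 of the 84 and in 0.146% of all windows. An amino acid response site (TGATGCAA or its reverse complement TTGCATCA) was in 3 of the 84, from Slc7a7 and Slc7a11, and in 0.895% of all. The windows of Slc7a7 that hold it overlap and share the same site, which is thus counted more than once. In Slc7a7 it spans a listed start, at chr14:54417923-54417952, minus strand, shown with the site in capitals.
Slc7a7 site: tagaagcTGATGCAAcagcttccccgaggg
Such a match describes letters only.

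The other amino acid carriers that were called had smaller differences, with the tip as the extreme group. Slc7a1 encodes CAT1, the general importer of arginine and lysine, and lay at 9.08 and 8.98 in mesenchyme, 9.46 and 9.41 in stalk, 10.14 and 9.89 in tip and 11.15 in mIMCD-3. It was highest in mIMCD-3 and, among the tissues, in tip, with no overlap between groups. The bud difference was 0.69 ± 0.12 (adjusted p = 0.0078), the tip difference 0.98 ± 0.14 (adjusted p = 0.00203) and tip minus stalk 0.58 ± 0.14 (adjusted p = 0.0379). Its second bright probe set gave a bud difference of 0.75, and another, dim probe set gave 0.00. The call in bud was lost without mesenchyme replicate 2 (adjusted p = 0.0784). The call between tip and stalk was lost with the mean of all probe sets (adjusted p = 0.0833) and with only the arrays compared (adjusted p = 0.063). Leaving out either mesenchyme array gives that last fit again. The call was also lost without either stalk array or tip replicate 1. Slc7a3, a second cationic amino acid importer known as CAT3, lay at 5.10 and 5.41 in mesenchyme, 5.31 and 5.31 in stalk, 5.96 and 5.95 in tip and 4.57 in mIMCD-3. Both tip arrays were above the rest, by 0.70 ± 0.14 against mesenchyme (adjusted p = 0.0132) and 0.65 ± 0.14 against stalk (adjusted p = 0.0277). The first call was lost without mesenchyme replicate 1 (adjusted p = 0.104), and the second without stalk replicate 1 (adjusted p = 0.192), stalk replicate 2 (adjusted p = 0.185), tip replicate 1 (adjusted p = 0.0532) or tip replicate 2 (adjusted p = 0.0703).

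Slc7a5 encodes LAT1, which imports large neutral amino acids into growing cells. Its values were 7.31 and 7.30 in mesenchyme, 7.44 and 7.51 in stalk, 7.97 and 7.79 in tip and 9.41 in mIMCD-3. The tip arrays were the highest of the tissues, and the line stood well above them. The tip was 0.58 ± 0.13 above mesenchyme (adjusted p = 0.0191). This call was lost with only the arrays compared (adjusted p = 0.0599), and leaving out either stalk array gives that same fit. It was also lost without either mesenchyme array (difference 0.58 for each). In bud the difference of 0.37 ± 0.11 was not called (adjusted p = 0.0829), although it was with the replicate block (adjusted p = 0.0286) and without tip replicate 2 (adjusted p = 0.0367). Slc7a2, which encodes the cationic amino acid carrier CAT2, lay at 6.71 and 6.63 in mesenchyme, 6.71 and 6.67 in stalk, 6.23 and 6.21 in tip and 4.36 in mIMCD-3. The tip arrays were lower than the other tissue arrays, at -0.45 ± 0.12 against mesenchyme (adjusted p = 0.0413). This call was lost in 9 of 12 alternatives, among them only the arrays compared (adjusted p = 0.138) and the omission of any 1 tissue array. Leaving out either stalk array repeats the fit of only the arrays compared, so the 9 are not separate checks. The heavy chain gene Slc3a2, partner of Slc7a5, Slc7a7 and Slc7a8, lay at 9.71 and 9.48 in mesenchyme, 10.29 and 10.24 in stalk, 10.59 and 10.47 in tip and 11.24 in mIMCD-3. It was higher in bud by 0.81 ± 0.12 (adjusted p = 0.00347), whereas the other heavy chain gene, Slc3a1, was at 0.04 and not called. Of the 15 Slc7 genes 2 were higher in bud, 1 was lower and 12 were not called. The 9 Slc7 genes called in no comparison of the fit without a block include Slc7a11, the cystine importer, at 3.89 to 4.36 in the tissues. Slc7a6, at 8.89 to 9.36, is another of the 9. With the replicate block Slc7a3 was also called in bud (0.38), and Slc7a4 (0.51) and Slc7a6 (-0.35) in tip against mesenchyme. Between tip and stalk the block added Slc7a2 (-0.47), Slc7a4 (0.39), Slc7a5 (0.41), Slc7a7 (-0.76) and Slc7a10 (0.55). Slc7a2 and Slc7a5 were also called there without the dimmest 40% of genes, and Slc7a5 with median centring.

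Among the 16 Slc6 genes only Slc6a8 was called in the limma fit without a block. With the block Slc6a17 was called in tip against mesenchyme and Slc6a15 between tip and stalk. Slc6a15 was called there with the mean of all probe sets too. Slc6a8 encodes the creatine transporter, and its values were 7.36 and 7.30 in mesenchyme, 8.12 and 7.90 in stalk, 8.12 and 8.06 in tip and 7.74 in mIMCD-3. Stalk and tip lay together above mesenchyme, and mIMCD-3 lay between on this probe set. On the second probe set mIMCD-3 was above all tissue arrays, at 7.65 against 6.75 to 7.34. The differences were 0.72 ± 0.12 for bud (adjusted p = 0.00516), 0.68 ± 0.13 for stalk (adjusted p = 0.0252) and 0.77 ± 0.13 for tip, and the second probe set gave 0.43 for bud. The bud call was lost without mesenchyme replicate 2 (adjusted p = 0.0523). The stalk call was lost without either mesenchyme array (adjusted p = 0.11 and 0.162) or either stalk array (adjusted p = 0.345 and 0.0937). The neurotransmitter carriers of this family, for example the noradrenaline transporter gene Slc6a2 (6.22 to 6.89 in the tissues) and the serotonin transporter gene Slc6a4 (5.24 to 5.96), had 0 of 7 called (none with the replicate block either, though Slc6a5 was in tip against mesenchyme without tip replicate 1). Of 8 measured neural markers 4 were lower in bud and 0 higher. Slc6a19, which takes up neutral amino acids in the adult proximal tubule, lay at 5.68 to 6.25 with a bud difference of -0.19 ± 0.15 (adjusted p = 0.653). Cltrn, encoding collectrin, an accessory protein that carries Slc6 carriers to the kidney brush border, was by contrast 1.82 ± 0.25 higher in bud (adjusted p = 0.00277), with values of 2.88 and 3.07 in mesenchyme, 5.14 and 5.02 in stalk, 5.01 and 3.99 in tip and 2.88 in mIMCD-3.

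Sodium-calcium exchangers, which remove calcium from cells in exchange for sodium, were unlike each other. Slc8a1 encodes NCX1, and its values were 5.18 and 4.73 in mesenchyme, 7.72 and 7.79 in stalk, 7.56 and 6.82 in tip and 3.65 in mIMCD-3. Each bud array was above both mesenchyme arrays, and mIMCD-3 was below all of them. The bud difference was 2.52 ± 0.22 (5.73-fold; adjusted p = 0.000237), with 2.80 ± 0.25 for stalk and 2.23 ± 0.25 for tip. Tip minus stalk was -0.57 ± 0.25 and called only without tip replicate 1 (adjusted p = 0.0349). Its 3 other probe sets had the same direction with smaller values of 0.23, 0.49 and 0.55. Averaged over its probe sets, the bud difference was 0.95 and still called (adjusted p = 0.000741). Slc8a3 encodes NCX3, known from muscle and neurons, and lay at 6.39 and 5.87 in mesenchyme, 7.04 and 6.83 in stalk, 5.37 and 5.56 in tip and 4.57 in mIMCD-3. Stalk was highest and tip lowest, so the mean over bud hid the difference (0.07 ± 0.17 for bud). Tip minus stalk was -1.46 ± 0.19 (2.76-fold lower; adjusted p = 0.00264), while neither stalk (0.80 ± 0.19; adjusted p = 0.0632) nor tip (-0.66 ± 0.19; adjusted p = 0.0588) was called against mesenchyme. Both were called with the replicate block (adjusted p = 0.0145 for stalk and 0.0165 for tip), stalk also without mesenchyme replicate 1 (adjusted p = 0.0251) and tip without mesenchyme replicate 2 (adjusted p = 0.0187). The second, dimmer probe set of Slc8a3 gave 0.10 for tip minus stalk. Slc8a2 was not called (bud -0.15, tip minus stalk 0.51), except between tip and stalk with the replicate block.

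**Figure D3:**
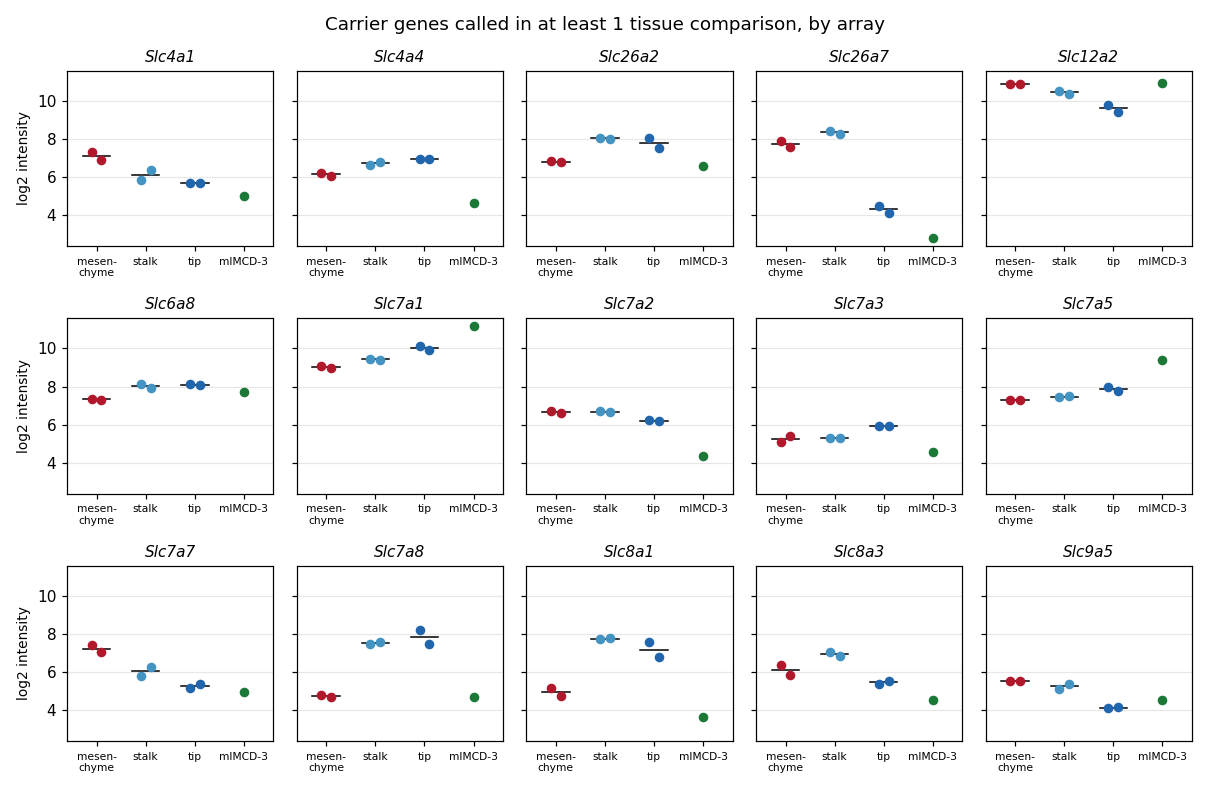
Log2 intensity (vertical axis, shared by all panels) on each of the 7 arrays, by group (horizontal axis). The 15 carriers are those called in at least 1 tissue comparison in the fit without a block. Points are arrays and lines are means of 2 arrays. Slc7a8 and Slc8a1 are high in stalk and tip, Slc26a7 is low in tip and mIMCD-3, and Slc7a1 and Slc7a5 are highest in mIMCD-3.

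The anion exchangers of Slc26 included the largest difference between tip and stalk. Slc26a7 encodes a chloride-bicarbonate exchanger or chloride channel known from intercalated cells of the collecting duct and from stomach and thyroid. Its values were 7.91 and 7.56 in mesenchyme, 8.44 and 8.25 in stalk, 4.51 and 4.15 in tip and 2.82 in mIMCD-3. Mesenchyme and stalk were high, tip lay near the lower quartile of its arrays (4.04 and 4.23), and mIMCD-3 lay below its own (3.99). Tip was -4.01 ± 0.18 from stalk (adjusted p = 2.89e-05) and -3.40 ± 0.18 from mesenchyme. No fold is given, because RMA gives no detection calls and tip may not be above background. The second probe set gave -1.55 and -1.09. Stalk minus mesenchyme was 0.61 ± 0.18 and not called (adjusted p = 0.139), and it was called with the replicate block (adjusted p = 0.007). The bud mean of -1.40 ± 0.16 therefore joins a high and a low group, and the arrays of bud and mesenchyme overlapped. Of 5 measured intercalated cell markers, 0 were called between tip and stalk (1 lower at an unadjusted limma p under 0.05 and 1 lower with the replicate block). Foxi1 was at -0.50.

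Slc26a2 encodes the sulfate transporter that supplies sulfation of matrix proteoglycans. Its values were 6.83 and 6.79 in mesenchyme, 8.08 and 8.01 in stalk, 8.07 and 7.51 in tip and 6.58 in mIMCD-3. All bud arrays were above mesenchyme, and the line was below it on this probe set. On the other probe sets the line was above both mesenchyme arrays (6.08 against 5.81 and 5.82, and 6.66 against 6.58 and 6.28). The differences were 1.11 ± 0.16 for bud (2.15-fold; adjusted p = 0.00344), 1.23 ± 0.19 for stalk and 0.98 ± 0.19 for tip, and the other probe sets gave 0.56 and 1.30 for bud. Tip minus stalk (-0.25 ± 0.19) was called only without tip replicate 1 (adjusted p = 0.0423). The other 8 Slc26 genes were not called in the fit without a block. They include Slc26a4, the pendrin gene of intercalated cells (3.97 to 5.10 in the tissues, tip minus stalk 0.53 ± 0.26), and Slc26a6 (6.50 to 6.95, bud -0.31 ± 0.11). With the replicate block Slc26a3 and Slc26a4 were called higher in tip than in stalk and Slc26a6 lower in tip than in mesenchyme. Slc26a6 was called there without the dimmest 40% of genes too.

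Among the bicarbonate carriers of Slc4, one was higher in bud and one lower. Slc4a4 encodes NBCe1, a sodium-bicarbonate cotransporter of epithelia. Its values were 6.24 and 6.08 in mesenchyme, 6.66 and 6.80 in stalk, 6.95 and 6.97 in tip and 4.66 in mIMCD-3. The order was mesenchyme, stalk and tip without overlap, and mIMCD-3 lay below all tissues. The bud difference was 0.69 ± 0.11 (adjusted p = 0.006), but 4 further probe sets gave 0.04, 0.06, -0.23 and 0.16, and the mean of all 5 was not called in bud (adjusted p = 0.625) or tip (adjusted p = 0.466). It was not called without mesenchyme replicate 2 either (adjusted p = 0.0742). The stalk call (0.57 ± 0.13; adjusted p = 0.0489) was lost in 7 of 12 alternatives, among them each omission of a mesenchyme or stalk array (adjusted p from 0.126 to 0.468). Slc4a1 encodes band 3, the anion exchanger of red blood cells and of intercalated cells. Its values were 7.32 and 6.92 in mesenchyme, 5.87 and 6.40 in stalk, 5.71 and 5.72 in tip and 5.01 in mIMCD-3. Mesenchyme was highest, with a bud difference of -1.19 ± 0.18 (adjusted p = 0.00403), -0.98 ± 0.21 in stalk (adjusted p = 0.037) and -1.41 ± 0.21 in tip. The stalk call was lost with only the arrays compared (adjusted p = 0.0604), and leaving out either tip array gives that same fit. It was also lost without mesenchyme replicate 1 (difference -0.78) or stalk replicate 1 (difference -0.71). Of the other probe sets of Slc4a1, 1 was at -0.23 for bud and 1 fell further than the one used. Tip minus stalk was -0.43 ± 0.21 and not called (adjusted p = 0.294). With the mean of all probe sets it was -0.80 and called (adjusted p = 0.0091). Of 7 measured erythroid markers 5 were lower in bud and 0 higher. Summed, these markers reached 23901 to 24257 (mesenchyme), 17924 to 18244 (stalk), 9763 to 10059 (tip) and 318 (mIMCD-3), and only Hba-a1 was below the lower quartile on all 6 tissue arrays. Their part in the Slc4a1 difference was not tested. Slc4a2, the widespread exchanger AE2, was not called between tissues (bud 0.46 ± 0.16; adjusted p = 0.141), though it was with the replicate block, in bud and in tip. The block also called Slc4a3, the exchanger AE3, in tip against mesenchyme (-0.42). Slc4a3 was called there with the mean of all probe sets and without the dimmest 40% of genes too. Of 16 carbonic anhydrase genes, which supply bicarbonate, 3 were higher in bud and 1 lower. Car3 was at 1.20 for bud and -3.72 for tip minus stalk, so its bud mean joins a stalk above mesenchyme and a tip below it. Car12 was at 1.42 and 0.89, and Car14 at -0.82 for bud.

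Of the cation-chloride cotransporters only Slc12a2 was called, among 8 genes in the fit without a block. It encodes NKCC1, which brings sodium, potassium and chloride into cells. Its values were 10.88 and 10.86 in mesenchyme, 10.52 and 10.37 in stalk, 9.79 and 9.43 in tip and 10.91 in mIMCD-3. Among the tissues mesenchyme was highest and tip lowest without overlap, and mIMCD-3 matched mesenchyme on this probe set. On the other probe sets mIMCD-3 lay above all tissue arrays, at 8.407 against 5.138 to 7.805 and at 9.028 against 6.923 to 8.855. The tip difference was -1.26 ± 0.16 (2.4-fold lower; adjusted p = 0.00101), tip minus stalk -0.83 ± 0.16 (adjusted p = 0.0137) and the bud difference -0.84 ± 0.13. The other probe sets gave -1.91 and -1.52 for tip against mesenchyme. The call between tip and stalk was lost without stalk replicate 1 (adjusted p = 0.123) or stalk replicate 2 (adjusted p = 0.0561). Stalk minus mesenchyme was -0.43 ± 0.16 and not called (adjusted p = 0.253), but it was called by limma with trend and robust variance (adjusted p = 0.0173). The cotransporter genes of adult salt reabsorption were not called: Slc12a1 (NKCC2) lay at 3.25 to 3.75 in the tissues and 3.45 in mIMCD-3, and Slc12a3 (NCC) at 5.52 to 5.99 and 5.42. With the replicate block Slc12a7 and Slc12a5, potassium-chloride cotransporter genes, were called in tip against mesenchyme, at 0.41 and -0.41, and Slc12a4, of the same group, in tip against stalk, at -0.40. Slc12a7 was also called in tip against mesenchyme with trend and robust variance, with median centring and without the dimmest 40% of genes. Slc12a5 was called in that comparison without the dimmest 40% of genes too, and Slc12a7 between tip and stalk with median centring. Among 11 measured genes of the kinase network that controls these cotransporters, 1 was higher in bud and 2 lower. The ubiquitin ligase gene Nedd4l had a bud difference of 1.32 ± 0.13, the kinase gene Sgk1 one of -1.23 ± 0.17 and Wnk4 one of -0.76 ± 0.11.

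The sodium-proton exchangers regulate the pH of cells and organelles, and 1 of 7 was called (with the replicate block Slc9a7 too, in bud). Slc9a5 encodes NHE5, best known from neurons. Its values were 5.52 and 5.57 in mesenchyme, 5.14 and 5.39 in stalk, 4.15 and 4.16 in tip and 4.57 in mIMCD-3. Both tip arrays lay below all others, at -1.11 ± 0.14 against stalk (adjusted p = 0.00177) and -1.39 ± 0.14 against mesenchyme (adjusted p = 0.00028). Tip lay near the lower quartiles of its arrays (4.04 and 4.23), so no fold is given here either. A second, dimmer probe set gave -0.07. Slc9a3, the apical exchanger NHE3 of the adult proximal tubule, lay at 3.76 to 4.44 and was not called. Its scaffold gene Slc9a3r2 was lower in bud (-0.67 ± 0.12; adjusted p = 0.00976), while Slc9a3r1 was higher in tip than in stalk (0.66 ± 0.12; adjusted p = 0.0128). Ezr, encoding the linker ezrin, was 2.03 ± 0.13 higher in bud. Of 10 measured partner and scaffold genes 4 were higher in bud and 1 was lower.

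Markers of other cell types were also lower in tip than in stalk, as were the 4 carriers called lower there. These 4 calls are those of the fit without a block. Between tip and stalk 9 of 10 endothelium markers were lower and 0 higher, with sums of 2452 to 2537 in stalk and 1179 to 1229 in tip. Nephron progenitor markers had 5 of 6 lower, neural markers 3 of 8 lower, with sums of 452 to 466 in stalk and 309 to 347 in tip, and smooth muscle markers 3 of 6 lower, with 495 to 510 in stalk and 330 to 392 in tip. Erythroid markers had 4 of 7 lower and myeloid markers 5 of 10, with 0 higher in either list, and their sums are given with Slc4a1 and Slc7a7. In mesenchyme the sums were higher than in stalk: 3693 to 4064 for endothelium, 832 to 905 for neural and 816 to 836 for smooth muscle markers. Slc9a5 and Slc12a2 were likewise highest in mesenchyme among the tissues, whereas Slc26a7 and Slc8a3 were highest in stalk. The part of these cell types in the values of the 4 carriers was not tested.

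The Slc5 family, with carriers of glucose and vitamins, and the Slc13 family had no called member in the fit without a block. Of the 10 Slc5 genes 0 were called in any of the 4 comparisons by limma, and 1 was higher in tip than in stalk at an unadjusted p under 0.05. Slc5a1 (SGLT1) lay at 4.10 to 4.78 in the tissues, and Slc5a2 (SGLT2) at 6.45 to 6.88. With the replicate block Slc5a2 was called in tip against stalk (0.37), as it was with median centring. The bud value farthest from 0 in the family was that of the multivitamin carrier gene Slc5a6, at -0.21 ± 0.15 (adjusted p = 0.593). Of the 5 Slc13 genes, sodium-coupled carriers of sulfate and dicarboxylates, 0 were called by limma in any comparison, also with the replicate block, and 0 had an unadjusted p under 0.05. Slc13a3 had a bud difference of 0.16 ± 0.16 (adjusted p = 0.755) and lay below the lower quartile on all 7 arrays. Differences of genes this dim are compressed by the array, so a change in them may not have been detectable.

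The pump behind sodium-coupled carriage differed between tissues in some of its subunit and regulator genes. Atp1b1, the beta subunit gene of the sodium-potassium ATPase, lay at 7.68 and 7.82 in mesenchyme, 9.88 and 9.86 in stalk, 9.84 and 9.76 in tip and 12.32 in mIMCD-3. It was 2.08 ± 0.11 higher in bud (adjusted p = 1.97e-05), and mIMCD-3 lay 2.44 above the highest tissue array. Of 11 measured subunit and regulator genes 2 were higher in bud and 2 lower. The regulator gene Fxyd6 had a bud difference of -1.95 ± 0.13, and Fxyd4, a regulator of the collecting duct, had one of 1.10 ± 0.13 with tip minus stalk at -1.20 ± 0.15.

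The mIMCD-3 array was compared with the range of the 6 tissue arrays, by size and without a test. Only 3 of 83 carriers (3.61%) lay at least 1 log2 unit above all tissue arrays, where 6.31% of all genes did, and 5 (6.02%) lay at least 1 unit below, where 5.13% did. The 3 above were Slc4a2, at 9.52 against 6.96 to 7.84 in the tissues, Slc7a5, at 9.41 against 7.30 to 7.97, and Slc7a1, at 11.15 against 8.98 to 10.14. Hence the only carriers above by this rule were an anion exchanger and importers of neutral and of cationic amino acids, and the second bright probe set of Slc7a1 had the same direction. The 5 below were Slc7a2 (4.36 against 6.21 to 6.71), Slc12a5 (4.26 against 5.99 to 6.54), Slc4a4 (4.66 against 6.08 to 6.97), Slc26a7 (2.82 against 4.15 to 8.44) and Slc8a1 (3.65 against 4.73 to 7.79). Each of these 5 has other, dimmer probe sets, and with the mean of all probe sets of a gene 0 carriers lay below by 1 unit and 2 lay above. By 2 units 0 carriers lay above (1.47% of all genes) and 0 below (2.11%). The bud carrier Slc7a8 was at 4.69 in mIMCD-3, below all 4 bud arrays.

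Genes of the amino acid response, which cells induce through the factor ATF4 when amino acids are short and which include amino acid carriers, stood higher in the line. Of 18 genes listed, 11 lay at least 1 unit above all tissue arrays (61.1%, against 6.31% of all genes) and 1 below. Nupr1 lay at 9.94 against 4.07 to 4.61, Trib3 at 8.47 against 5.18 to 5.57, Chac1 at 8.47 against 5.23 to 5.68 and Asns, the asparagine synthetase gene, at 11.31 against 8.19 to 8.64. Atf4 itself lay at 11.31, 0.07 above the highest tissue array. Slc7a11, a carrier known to belong to this response, lay at 4.13 and within the tissue range of 3.89 to 4.36. These values are near the lower quartiles of the arrays (3.99 to 4.23), so a change may not have been detectable. Its other probe set, below the lower quartile on all 7 arrays, had the line at 3.815 against 3.187 to 3.711 in the tissues. Line, culture and array cannot be told apart on 1 array. In the tissues 5 of the 18 were higher in bud and 0 lower (7 and 1 with the replicate block), led by Psph (2.19 ± 0.13), which encodes an enzyme of serine synthesis. Between the bud regions, 4 of 18 were higher in tip than in stalk and 1 was lower (7 and 1 with the replicate block).

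**Figure D4:**
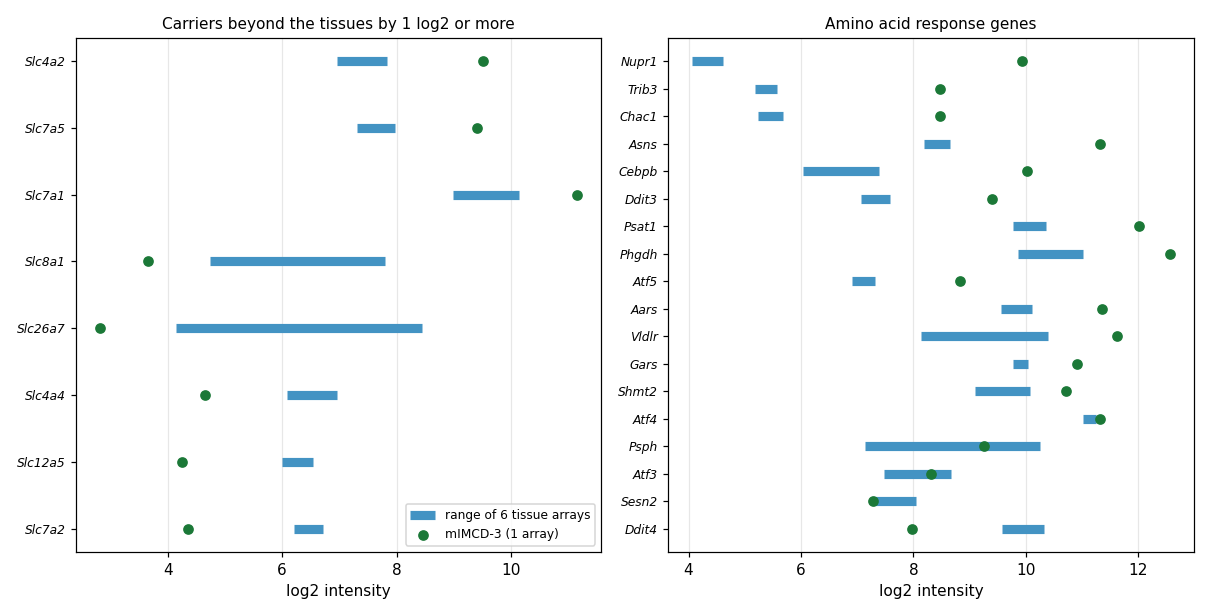
Log2 intensity (horizontal axis) in mIMCD-3 (points, 1 array) and the range of the 6 tissue arrays (bars) for the 8 carriers beyond that range by at least 1 unit (left) and for the 18 amino acid response genes (right). Slc4a2, Slc7a5 and Slc7a1 lie to the right of their bars, and 11 of the 18 response genes do so by at least 1 unit.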

How the data were processed

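The 7 samples were each hybridised to 1 Affymetrix mouse array. Deposited values are linear intensity, recalculated by the authors with robust multichip analysis (RMA) over all 7 arrays, per the labels and the series' design text; software and version are not given in the sources used here. RMA gives no detection calls and compresses folds of dim genes. Intensities ran from 5.08 to 19587, and array medians from 42.1 to 49.2. Values were converted to log2. Of 45101 probe sets, 34945 list 1 gene, and the brightest of a gene's probe sets by mean stood for it, giving 18193 genes (48 of the 83 carriers have more than 1). Names come from the platform annotation; 99.1% of Entrez identifiers were found in the RefSeq table of GRCm38.p6, used for names and gene order, and promoters come from RefSeq.

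A single limma model (version 3.58.1, R 4.3.3) with group means was fitted to the 6 tissue arrays, tests were two-sided, and the code was tested on simulated data. mIMCD-3 was described by size only. Replicates of the same number deviated together (correlations of 0.391, 0.568 and 0.434 between groups), so blocking on replicate was an alternative; the labels do not state the pairing, and whether the samples came from separate litters is not stated. Other alternatives were trend and robust variance, median centring, a filter on dim genes, the mean of all probe sets, only the arrays compared, and leaving out each array. A group left with 1 array adds nothing to the estimate of spread. Leaving out an array of a group that is not compared therefore repeats the fit of only the arrays compared. Named carriers are those called with no overlap between arrays (at most 10 each way), those beyond the tissues by 1 unit in mIMCD-3, the largest of each remaining family, and the largest few of each pathway and marker list; others named were chosen after their values were seen or for their known role. The members and lists were chosen with earlier results of these data known. Python 3.11.15 and matplotlib 3.10.9 drew the figures.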

Additional observations from a re-analysis of the deposited data

Results flagged for a closer look

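In Slc26a7 and Slc8a3 the mean of stalk lay above mesenchyme and that of tip below it, and the difference between tip and stalk was called in the limma fit. Slc26a7 was -4.01 in tip minus stalk, with stalk at 0.61 against mesenchyme, which was not called (adjusted p = 0.139), and tip at -3.40, which was. Slc8a3 was -1.46, with stalk at 0.80 (adjusted p = 0.0632) and tip at -0.66 (adjusted p = 0.0588), neither of them called. The second, dimmer probe set of Slc8a3 gave 0.10 for tip minus stalk.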

How the results depend on the processing

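Precision is limited by 2 arrays per tissue and by dim probe sets; mIMCD-3 has 1 array. With the replicate block, carriers called were 10 higher in bud against mesenchyme, 11 lower in tip against mesenchyme, and 9 higher and 8 lower in tip against stalk. Every carrier called in the main fit without the block was called with it. In tip against stalk, the higher count was 5 with median centring, 1 with the mean of all probe sets and 1 with only the arrays compared, and the lower count was 7 with the mean of all probe sets. In stalk against mesenchyme the lower count was 1 with only the arrays compared. Among these fits, the split over all genes is given above only for median centring, so the other counts have no background beside them. Leaving out 1 array gave 3 to 7 higher in bud, 3 to 5 higher and 0 to 2 lower in stalk, and 0 to 3 higher in tip against stalk, by limma. In mIMCD-3, 0 carriers were above and 0 below by 2 units, and with the mean of all probe sets 2 were above and 0 below by 1 unit. Over 19 named carriers and all alternatives, 790 of 877 single values kept their call or its absence. Of the rest 51 lost a call and 36 gained one, and 0 called values changed direction. Some of the 877 come from the same fit counted more than once, so they are not separate checks. The cause was not tested.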
